A study of Mus musculus with 4 samples.

Results

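The genes described here are 7 interferon-induced genes measured by RNA sequencing in mouse lens: Ifit1, Ifit3, Isg15, Bst2, Stat2, Irf7 and Irf1. They were taken by symbol from the 21505 gene symbols of the deposited tables, keeping for each symbol the locus of highest mean FPKM (fragments per kilobase of transcript, scaled to the mapped fragments of the library) over the libraries. All 7 were found, each on 1 locus, and all 7 reached 1 FPKM in at least 1 library, as did 11495 genes in all. All animals were of strain C57BL/6 and carried a transgene for the lens chaperone alpha A crystallin. In the CRYAAN101D line, called N101D below, the encoded protein has the N101D replacement that mimics a deamidated asparagine. In the CRYAAWT line, called WT below, it has the normal sequence. There was 1 library each for N101D at 4 months, WT at 4 months, N101D at 2 months and WT at 2 months. Every group used here thus carries a transgene. Neither the promoter in front of it nor the sex and number of animals or lenses per library is stated in the sources used here.

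Interferons are secreted proteins released when a cell senses foreign or misplaced nucleic acid. Type I interferons bind the receptor pair IFNAR1 and IFNAR2, whose kinases JAK1 and TYK2 phosphorylate STAT2. With IRF9 it forms part of a complex that binds the interferon-stimulated response element (ISRE) in front of its target genes. Interferon gamma acts mainly through another element, the gamma-activated site (GAS). Among the members, Ifit1 and Ifit3 encode proteins that act on viral RNA and its translation. Isg15 encodes a ubiquitin-like protein that is attached to other proteins, and Bst2 encodes tetherin, which holds budding virus at the cell surface. Stat2 encodes a subunit of the complex itself, Irf7 the factor that amplifies type I interferon production, and Irf1 a factor induced through both pathways. Macrophages, dendritic cells, vessels and epithelia express such genes, and the avascular lens has few immune cells of its own.

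The promoters are shown because the members are commonly grouped by the element that drives them. In the RefSeq windows of the GRCm38.p6 build, from 250 bases before to 50 bases after a gene start, all 7 members were matched. The ISRE was searched as GAAA, any 2 bases and GAAA, and for the other strand as TTTC, any 2 bases and TTTC, with overlapping matches counted. It was present in 5 members, against 3.44% of all 32851 windows. The GAS core was searched as TTCNNNGAA, which reads the same on both strands, and was present in 2 members, against 8.30% of all windows. The stretches around the matches follow, in the direction of the gene, with the matched bases in capitals. They lie at chr19:34640745-34640853 on the plus strand (Ifit1), chr19:34583333-34583456 on the plus strand (Ifit3), chr4:156200835-156200936 on the minus strand (Isg15), chr8:71537547-71537642 on the minus strand (Bst2), chr10:128270248-128270325 on the plus strand (Stat2) and chr11:53769884-53769972 on the plus strand (Irf1). The first 5 show ISRE matches, and Irf1 shows its GAS match.
Ifit1: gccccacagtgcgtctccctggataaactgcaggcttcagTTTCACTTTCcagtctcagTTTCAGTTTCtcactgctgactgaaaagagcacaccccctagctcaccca
Ifit3: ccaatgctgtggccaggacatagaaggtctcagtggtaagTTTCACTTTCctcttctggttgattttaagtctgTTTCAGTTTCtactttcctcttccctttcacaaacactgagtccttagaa
Isg15: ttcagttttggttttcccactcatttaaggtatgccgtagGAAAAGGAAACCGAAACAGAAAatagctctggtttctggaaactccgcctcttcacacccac
Bst2: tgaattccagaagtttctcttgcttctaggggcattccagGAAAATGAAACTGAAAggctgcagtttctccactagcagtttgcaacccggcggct
Stat2: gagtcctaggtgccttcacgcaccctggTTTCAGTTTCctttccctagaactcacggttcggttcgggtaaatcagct
Irf1: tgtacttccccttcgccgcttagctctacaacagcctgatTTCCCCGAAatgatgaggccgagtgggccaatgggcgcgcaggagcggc
Ifit1 held 2 separate ISRE matches, beginning at -104 and -85 with the gene start counted as 0, and Ifit3 held 2, beginning at -156 and -122. Isg15 held 3 overlapping matches between -78 and -57. Bst2 held 2 overlapping matches between -130 and -115, and its GAS match, from -136 to -128, overlaps only the one that begins at -130. Stat2 held 1 match at -222. Irf7 held neither motif in this window, which says nothing about elements elsewhere in the gene. A match is a sequence fact and was not set against the expression values.

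**Figure D1:**
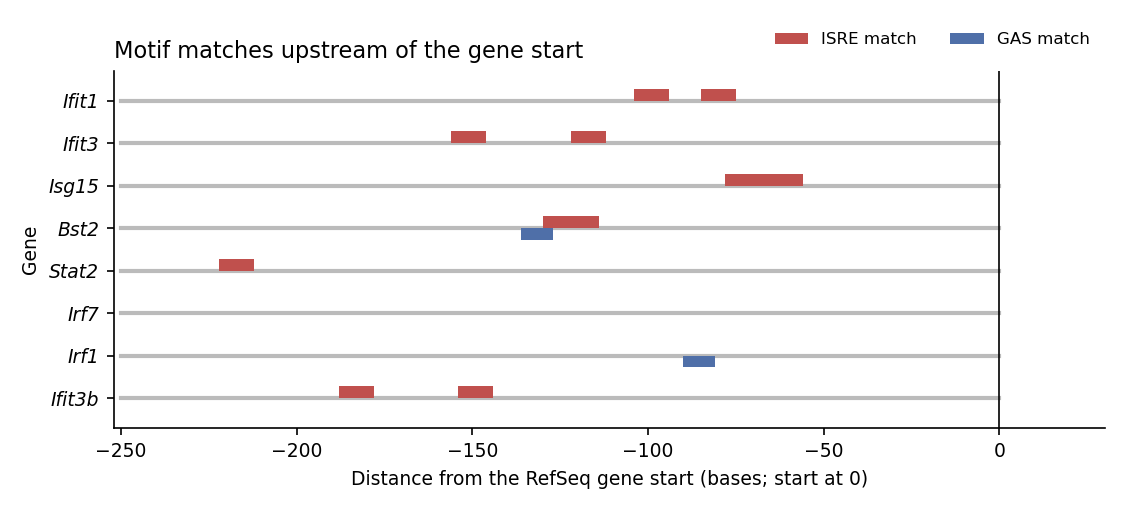
Positions of the ISRE and GAS matches in the 250 bases before the RefSeq gene start (x axis, bases, start at 0) of the 7 members and of Ifit3b, the near copy of Ifit3; red bars are ISRE matches and blue bars GAS matches. Bars that touch are overlapping matches, as in Isg15, and Irf7 shows none.

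Depth was read off the steps that 1 read makes in low FPKM values. It came to about 53.1 M fragments for N101D against 34.9 M for WT at 4 months, and to 24.4 M for N101D against 49.7 M for WT at 2 months. The lens genes Cryaa, Crygs, Lim2, Bfsp1 and Foxe3 were listed at 19.8 FPKM or more in every library, and Mip, a further lens marker, had no usable value. The N101D library of 2 months stood apart from the other 3. Xist, which female cells transcribe from their inactive X, was listed at 12.9 FPKM in it against 0.0744 FPKM in WT at 2 months. The 4 Y-linked genes measured were at 0.303 FPKM or less in it, against 1.55 FPKM or more in each of the other libraries. Sex and genotype at 2 months, and sex and age in N101D, therefore cannot be told apart. Macrophage, endothelial and pigmented tissue markers were lower in it too, with values given beside the results below.

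By their median, the members were genes of low abundance in lens. Their median was 1.94 FPKM in N101D and 1.32 FPKM in WT at 4 months, and 0.609 FPKM in N101D and 1.62 FPKM in WT at 2 months. The median over all genes at 1 FPKM or more lay between 4.16 and 4.86 FPKM in these libraries. Ifit3 was the most abundant member in every library but the N101D library of 2 months, where Irf1 was. Except in that library, Ifit3 lay above the median of all genes, at 5.01 to 7.05 FPKM. For 6 members the authors' table gives the status NOTEST, which Cuffdiff sets where a locus has too few alignments for its own test, and for Ifit1 it gives OK. In 6 of the 7 members the lowest of the 4 values belonged to the N101D library of 2 months. Ifit1 was the exception, with its highest value there.

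Ifit3 (XLOC_019631, chromosome 19, 34657630 to 34663555 on mm9, as the deposited table lists it) had 5.37 FPKM in N101D and 5.01 FPKM in WT lenses at 4 months, and 0.373 FPKM in N101D and 7.05 FPKM in WT lenses at 2 months. It is thus the N101D library of 2 months that is low, while the other 3 lie close together. In RNA of whole lenses, fewer cells of a type and less RNA per cell cannot be told apart. At 2 months the log2(FPKM + 1) difference of N101D from WT was -2.55, and Ifit3 ranked 69th from the lowest among 11475 genes. On the linear scale it was 18.9-fold lower in N101D, with an exact 95% binomial interval of 11.5 to 35.7. That interval rests on about 14 reads in N101D and 556 in WT, and like all such intervals here it covers counting error only. At 4 months the difference was 0.086, with a counting interval of -0.10 to 0.27, so a difference was not detectable at this depth.

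The value of Ifit3 is shared in part with its neighbour. Of the 50-base stretches of its transcript, 51.2% occur identically in Ifit3b, listed here under its older symbol I830012O16Rik, so the authors' estimation may have split reads between them. I830012O16Rik stood at 3.09 FPKM in N101D and 2.97 FPKM in WT at 4 months, and at 0.483 FPKM in N101D and 3.83 FPKM in WT at 2 months. Its difference at 2 months was -1.70, with the same sign as that of Ifit3. The promoter stretch of Ifit3b at chr19:34607729-34607852 on the plus strand is shown because its letters are those of Ifit3 above.
Ifit3b: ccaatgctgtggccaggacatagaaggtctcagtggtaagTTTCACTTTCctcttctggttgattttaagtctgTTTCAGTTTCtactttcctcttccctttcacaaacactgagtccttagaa

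Isg15 (XLOC_027959, chromosome 4, 155573532 to 155574927) had 1.30 FPKM in N101D and 0.816 FPKM in WT at 4 months, and 0.139 FPKM in N101D and 1.62 FPKM in WT at 2 months. Its transcript is short, so these values rest on few reads: about 41 reads in N101D against 17 in WT at 4 months, and about 2 reads in N101D against 48 in WT at 2 months. The difference at 2 months was -1.20 on the log2(FPKM + 1) scale. The linear value was 11.7-fold lower in N101D, with a counting interval of 3.05 to 98.9. At 4 months the difference was 0.34, with an interval of -0.09 to 0.74.

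Bst2 (XLOC_038646, chromosome 8, 74058160 to 74061491) had 3.03 FPKM in N101D and 1.91 FPKM in WT at 4 months, and 0.609 FPKM in N101D and 3.74 FPKM in WT at 2 months. The N101D library of 2 months was again the lowest, and the WT library of that age the highest. The difference at 2 months was -1.56, or 6.14-fold lower in N101D (counting interval 3.24 to 14.3). At 4 months Bst2 differed by 0.47 (0.09 to 0.83), the highest genotype difference among the members at that age. Bst2 also marks plasmacytoid dendritic cells in mouse. The 4 markers of these cells, Bst2 itself included, summed to 14.4 FPKM in N101D and 12.0 FPKM in WT at 4 months, and to 7.36 FPKM in N101D and 11.0 FPKM in WT at 2 months. Siglech, the most specific of them, was listed at 0.2995 FPKM in N101D and 0.183 FPKM in WT at 4 months, and at 0 in N101D and 0.163 FPKM in WT at 2 months. Tcf4, whose listed span is shared with other loci, stood at 5.51 FPKM in N101D and 5.75 FPKM in WT at 2 months (-0.05). Il3ra stood at 1.25 FPKM in N101D and 1.35 FPKM in WT at 2 months (-0.07). Of the 3 markers at 1 FPKM or more, only Bst2 was thus 2-fold lower at that age. Siglech stayed below 1 FPKM in every library and is not in that count. The part of these cells in the Bst2 values was not tested.

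Ifit1 (XLOC_019633) had its highest value where the other members had their lowest. It was listed at 0.931 FPKM in N101D and 1.21 FPKM in WT at 4 months, and at 1.41 FPKM in N101D and 1.27 FPKM in WT at 2 months. All 4 values lie within a narrow band, and the genotype differences were -0.19 at 4 months (-0.39 to 0.0074) and 0.087 at 2 months (-0.14 to 0.31). Neither interval leaves out 0. The Ifit1 value needs care, because its listed span (chromosome 19, 34667377 to 34822744) is shared with I830012O16Rik, Gm14446, 2010002M12Rik and Slc16a12, 5 named loci in all. Of its 50-base stretches 7.13% occur in other genes, Ifit1bl2 (7.06%) and Ifit1bl1. A stretch can occur in both, and the share of Ifit1bl1 alone is not given here. Gm14446, which RefSeq lists as Ifit1bl1, stood at 3.31 FPKM in N101D and 1.44 FPKM in WT at 4 months and at 1.504 FPKM in N101D and 4.95 FPKM in WT at 2 months. Ifit2, another gene of the cluster, on the far side of Ifit3, had values in a narrow band as well: 2.89 FPKM in N101D and 3.03 FPKM in WT at 4 months, and 2.85 FPKM in N101D and 2.25 FPKM in WT at 2 months.

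**Figure D2:**
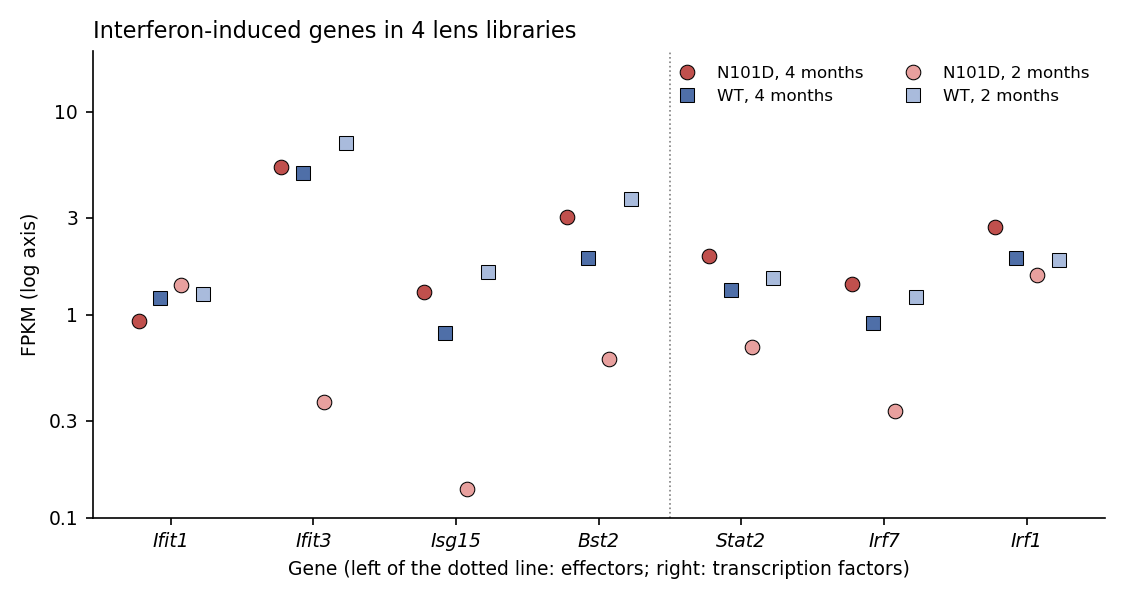
FPKM (log axis) of the 7 members in the 4 libraries, 1 point per library; red circles are N101D and blue squares WT, with darker shades for 4 months. The N101D point of 2 months is the lowest for every gene but Ifit1, and lies farthest below the others for Ifit3, Isg15 and Bst2.

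Among the transcription factors, Irf7 (XLOC_036423, chromosome 7, 148449087 to 148452346) had 1.41 FPKM in N101D and 0.915 FPKM in WT at 4 months, and 0.334 FPKM in N101D and 1.22 FPKM in WT at 2 months. The difference at 2 months was -0.74, less than 2-fold on the log2(FPKM + 1) scale, which understates the change of low genes. On the linear scale it was 3.66-fold lower in N101D (2.18 to 6.42), on about 17 reads in N101D and 126 in WT. Stat2 (XLOC_003210, chromosome 10, 127707616 to 127729905) had 1.94 FPKM in N101D and 1.32 FPKM in WT at 4 months, and 0.696 FPKM in N101D and 1.52 FPKM in WT at 2 months. Its difference at 2 months was -0.57, or 2.19-fold lower in N101D on the linear scale (1.69 to 2.86). With its long transcript Stat2 rests on about 72 reads in that N101D library and on 195 or more in each of the others.

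Irf1 (XLOC_005022, chromosome 11, 53583403 to 53591876) differed least among the transcription factors at 2 months. It was listed at 2.70 FPKM in N101D and 1.92 FPKM in WT at 4 months, and at 1.58 FPKM in N101D and 1.86 FPKM in WT at 2 months. The difference at 2 months was -0.15 (-0.40 to 0.10), so no difference was detectable at this depth, and it turned to 0.04 with quantile normalization. At 4 months all 3 factors were higher in N101D by nearly the same amount: Irf1 by 0.34 (0.13 to 0.55), Stat2 by 0.34 (0.19 to 0.49) and Irf7 by 0.33 (0.11 to 0.55). These counting intervals leave out 0, but with 1 library per group none of the differences has a replicate check.

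Across the 7 members at 2 months, 3 were at least 2-fold lower in N101D (an absolute log2(FPKM + 1) difference of 1 or more) and none was 2-fold higher. Over all genes 3.69% were 2-fold lower and 0.593% 2-fold higher, 4.28% in either direction. The members' median was -0.74 and that of all genes -0.09. All 3 were effectors, and none of the 3 transcription factors reached the threshold. The count depends on the pseudocount, since Isg15 (-0.37) and Bst2 (-0.64) stay short of 2-fold when 5 FPKM is added, and Irf7 (-1.61) and Stat2 (-1.03) pass it when 0.1 FPKM is added. At 4 months no member was 2-fold different in either direction, against 0.384% of all genes lower, 0.523% higher and 0.907% in either direction. The members' median was then 0.34 and that of all genes 0.03, with 6 members positive and Ifit1 negative. The members summed to 16.7 FPKM in N101D and 13.1 FPKM in WT at 4 months, and to 5.13 FPKM in N101D and 18.3 FPKM in WT at 2 months.

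**Figure D3:**
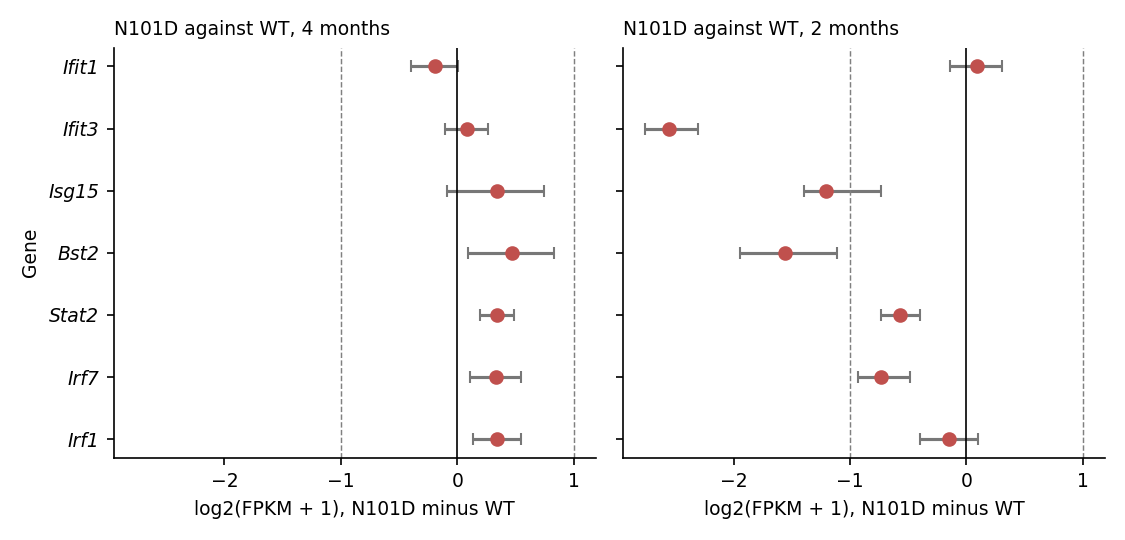
Difference of N101D from WT in log2(FPKM + 1) for each member at 4 months (left) and 2 months (right); points are single-library differences, bars are exact 95% binomial intervals of approximate reads (counting error only), and dashed lines mark a 2-fold difference. At 2 months Ifit3, Isg15 and Bst2 lie beyond the dashed line on the negative side, and at 4 months every member lies within the dashed lines.

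The ages were compared within each line. In WT lenses 6 members had a negative difference between 4 and 2 months: Bst2 differed by -0.70 (1.91 FPKM at 4 months against 3.74 FPKM at 2 months), Isg15 by -0.53, Ifit3 by -0.42, Irf7 by -0.21, Stat2 by -0.12, Ifit1 by -0.038, while Irf1 differed by 0.029. The counting intervals of Irf7, Stat2, Ifit1 and Irf1 include 0. No member was 2-fold different, against 0.603% of all genes lower, 0.769% higher and 1.37% in either direction. In N101D lenses Ifit3 was higher at 4 months by 2.21, Bst2 by 1.32, Isg15 by 1.01, Irf7 by 0.85, Stat2 by 0.79 and Irf1 by 0.52, while Ifit1 differed by -0.32. Thus 3 of 7 were at least 2-fold higher, against 5.32% of all genes, and 1.28% of all genes were 2-fold lower and 6.6% differed in either direction. With 5 FPKM added none of the 3 reached 2-fold (Ifit3 0.95, Bst2 0.52, Isg15 0.29), and with 0.1 FPKM added Irf7 (1.80) and Stat2 (1.36) passed it as well. Isg15 also fell short of 2-fold with quantile normalization (0.79) and with equal medians (0.95), the setting chosen after seeing the data. The age difference in N101D and the genotype difference at 2 months share the N101D library of 2 months, so they are not separate observations. The genotype difference at 4 months likewise shares a library with each age difference. The tables of the ages may have been made in separate runs, since the status of 2788 of 44597 loci differs between the ages and that of none within an age.

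Without the N101D library of 2 months, the comparisons left are genotype at 4 months and age in WT, and no member was 2-fold different in either. Markers of some other tissues were low in the same library. The 7 macrophage and leukocyte markers measured summed to 7.42 FPKM in N101D and 5.44 FPKM in WT at 4 months, and to 0.711 FPKM in N101D and 6.42 FPKM in WT at 2 months. All 4 that reached 1 FPKM were lower in N101D at 2 months, 3 of them by 2-fold or more, against 3.69% of all genes. An example is Tyrobp, a signalling adaptor of myeloid cells (0.116 FPKM in N101D against 1.57 FPKM in WT). The 5 endothelial markers summed to 6.13 FPKM in N101D and 5.38 FPKM in WT at 4 months, and to 1.21 FPKM in N101D and 5.79 FPKM in WT at 2 months. The 8 markers of pigmented iris, ciliary body and pigment epithelium summed to 286 FPKM in N101D and 249.7 FPKM in WT at 4 months, and to 14.6 FPKM in N101D and 353 FPKM in WT at 2 months. The 5 retina neuron markers summed to 362 FPKM in N101D and 599.9 FPKM in WT at 4 months, and to 340.2 FPKM in N101D and 376 FPKM in WT at 2 months, and the 3 cornea and conjunctiva markers to 139.8 FPKM in N101D and 100.8 FPKM in WT at 4 months, and to 92.0 FPKM in N101D and 54.2 FPKM in WT at 2 months. No marker of these 5 lists was listed at 0 in any library. The part of these tissues in the members' values was not tested.

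**Figure D4:**
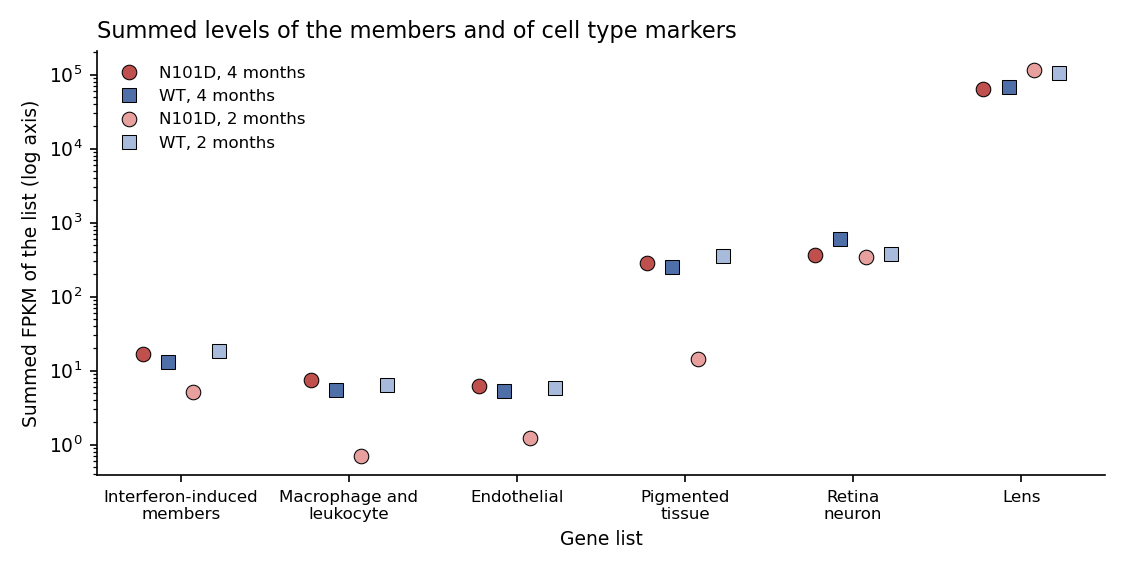
Summed FPKM (log axis) of the 7 members and of 5 marker lists in each library; red circles are N101D and blue squares WT, with darker shades for 4 months. The N101D library of 2 months is the lowest for the members and for the macrophage, endothelial and pigmented tissue markers, and, by a smaller margin, for the retina neuron markers, but not for the lens markers.

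The rest of the interferon pathway was followed through 127 listed genes, of which 121 were found and 55 besides the members reached 1 FPKM. At 2 months 5 of these 55 (9.09%) were at least 2-fold lower in N101D and none was 2-fold higher, against 3.69% lower and 0.593% higher over all genes, and 47 had a negative sign. Their median was -0.30, against -0.09 for all genes. At 4 months none was 2-fold different in either direction, against 0.907% of all genes, 42 had a positive sign and the median was 0.13, against 0.03 for all genes. For these and the other sign counts given here, the share of all genes with that sign was not counted.

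Interferons themselves were nearly undetected. Of 19 ligand genes, from Ifnb1 and the Ifna family to Ifng and the lambda genes Il28a and Il28b, none exceeded 0.0631 FPKM in any library, and 16 or more were listed at 0 in each. The highest values were those of Ifnk, which shares its span with other loci, at 0.0595 FPKM in N101D with WT listed at 0 at 4 months, and at 0.0631 FPKM in N101D with WT listed at 0 at 2 months. Receptors were present. Ifnar1, a chain of the type I receptor, stood at 6.86 FPKM in N101D and 5.87 FPKM in WT at 4 months, and at 6.81 FPKM in N101D and 8.54 FPKM in WT at 2 months. Of the 5 receptor genes at 1 FPKM or more, Il10rb, a chain shared by the receptors for lambda interferons and IL-10, was 2-fold lower in N101D at 2 months (0.638 FPKM against 3.35 FPKM; -1.41). Ifngr2, a chain of the interferon gamma receptor, differed by 0.00 at 4 months and -0.11 at 2 months.

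Signal transducers showed no 2-fold genotype difference at either age. The kinase gene Jak1 differed between genotypes by 0.00 at 4 months and -0.30 at 2 months. The regulatory factor genes Irf2 (0.00 and -0.31) and Irf3 (-0.07 and -0.03), given for 4 and then 2 months, had differences of less than 2-fold. The listed spans of Jak1, Irf2 and Tbk1 are shared with other loci. Among sensors and adaptors, 6 of 15 reached 1 FPKM and none was 2-fold different. Mavs, the adaptor of the RNA sensors, stood at 0.29 at 4 months and -0.49 at 2 months, and the kinase gene Tbk1 at 0.26 and -0.25.

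Among 19 other type I interferon-induced genes at 1 FPKM or more, 3 were 2-fold lower in N101D at 2 months, against 3.69% of all genes, and 17 had a negative sign. Ifitm3, which blocks virus entry at endosomes, was listed at 18.2 FPKM in N101D and 15.9 FPKM in WT at 4 months, and at 2.49 FPKM in N101D and 25.5 FPKM in WT at 2 months, a difference of -2.93. Lgals3bp, a secreted glycoprotein gene, stood at 10.5 FPKM in N101D and 8.92 FPKM in WT at 4 months, and at 3.43 FPKM in N101D and 16.1 FPKM in WT at 2 months (-1.95). Ifi27l1 differed by -1.16 at 2 months, at 10.8 FPKM in N101D and 25.3 FPKM in WT. Against these, Eif2ak2, the gene for the RNA-activated kinase PKR, was listed at 21.8 FPKM in N101D and 24.9 FPKM in WT at 2 months (-0.18). Ifitm2, which lies next to Ifitm3, stood at 20.3 FPKM in N101D and 25.6 FPKM in WT (-0.32). The listed span of Ifitm2 is shared with another locus.

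Genes that attach ISG15 to proteins or remove it had smaller differences than Isg15 at 2 months. Ube2l6, its conjugating enzyme, stood at 4.83 FPKM in N101D and 4.80 FPKM in WT at 2 months (0.01), and Trim25, a ligase, differed by -0.08. None of the 4 genes of this list at 1 FPKM or more was 2-fold different at either age. All 7 type II interferon-induced genes at 1 FPKM or more had a negative sign at 2 months and a positive sign at 4 months, with medians of -0.50 at 2 months and 0.13 at 4 months and no 2-fold member. They include the immunoproteasome subunit gene Psmb10 (-0.44 at 2 months) and the peptide transporter gene Tap2 (-0.30). Of the 9 negative regulators, Tnip1, a ubiquitin-binding inhibitor of inflammatory signalling, was 2-fold lower in N101D at 2 months, at 0.794 FPKM against 6.75 FPKM in WT (-2.11), and shares its listed span with another locus. Tnip1 was also lower in N101D at 4 months, at 3.71 FPKM against 6.96 FPKM in WT (-0.76). The phosphatase gene Ptpn11 differed by -0.15 at 2 months.

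**Figure D5:**
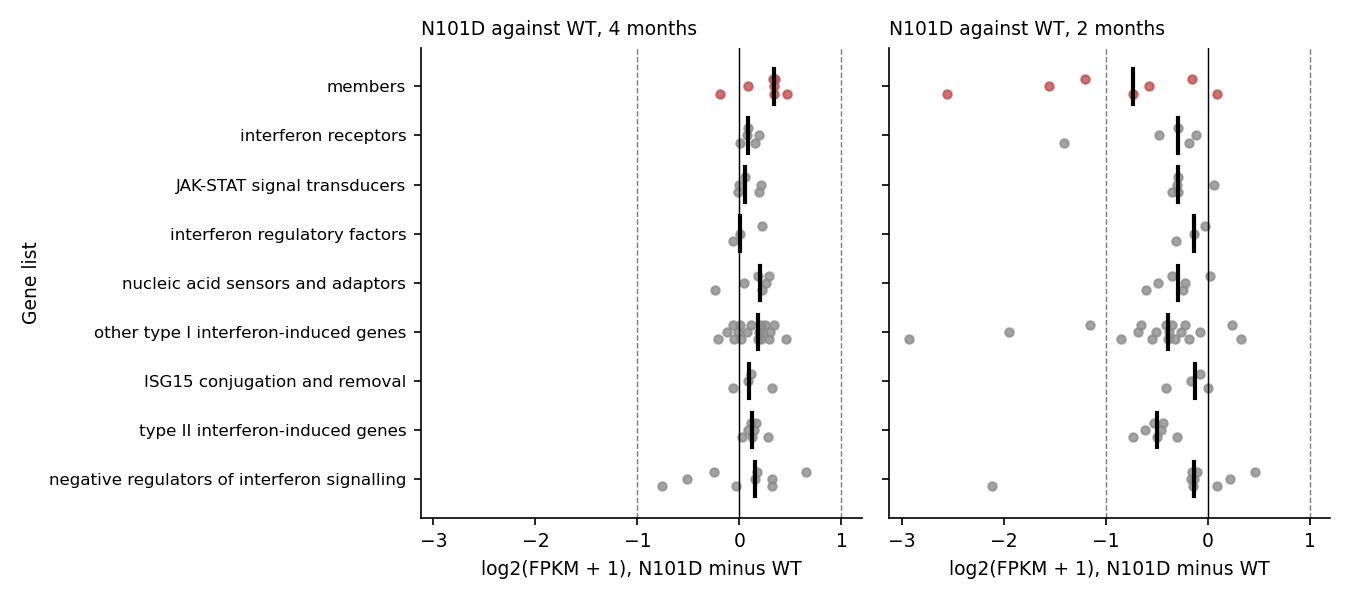
Difference of N101D from WT in log2(FPKM + 1) at 4 months (left) and 2 months (right) for the members (red) and the genes of 8 interferon pathway lists at 1 FPKM or more (grey), 1 point per gene; black bars are list medians and dashed lines mark a 2-fold difference. At 2 months the median of every list is negative, and the members have the most negative one at -0.74.

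The genes whose profile over the 4 libraries was closest to the members' mean profile were Sema3f, Slc22a17, Fam198a, Aldh1a2, Atp2b4 and Nwd1. Likeness was the Euclidean distance between log2(FPKM + 1) values centred on each gene's mean, over 4 libraries and 11440 genes, and ranged from 0.0180 for Sema3f to 0.0575 for Nwd1. Of the members, Irf7 (0.167) and Isg15 (0.202) lay closest to their own mean profile and Ifit3 (1.27) and Ifit1 (0.939) farthest from it. Sema3f, a secreted guidance protein gene, stood at 6.22 FPKM in N101D and 5.03 FPKM in WT at 4 months, and at 2.80 FPKM in N101D and 6.30 FPKM in WT at 2 months. With 4 points per gene this is a description only.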

How the data were processed

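RNA of mouse lenses was extracted with Trizol and made into TruSeq libraries, per the labels' protocols. The authors deposited FPKM per locus, and these were the values used. Software listed in the submitters' processing notes comprises TopHat 1.2.0, CASAVA 1, Cuffdiff and Cufflinks 1.0.3, with the build mm9; for the annotation and the Cuffdiff version the entry is not given in the sources used here. Loci of status FAIL were taken as missing. The members and gene lists were chosen with earlier results of these data known. Genes at 1 FPKM or more in at least 1 library were compared as log2(FPKM + 1) with no further scaling, and an absolute difference of 1 or more was counted as 2-fold. Each group has 1 library, so no p-value is given. No source used here says whether libraries keep strand, so a gene and an antisense partner cannot be told apart.

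Depth was recovered from loci spanning 400 to 2500 bases, as the number of fragments at which FPKM times length, less 158 to 167 bases, came within 0.05 of whole reads. This held for 80.1% to 86.3% of 2961 to 4006 values, and was checked on simulated libraries. Approximate reads of a member use the longest protein-coding transcript of GENCODE M21 and are rounded to whole reads; intervals are exact 95% binomial (Clopper-Pearson) for the split of reads between libraries. Named were all members, list genes 2-fold different between genotypes (at most 6 per list), the 2 most abundant genes of a list and the 6 most alike profiles; other genes named were chosen after their values were seen, among them Siglech and the neighbours of Ifit1 and Ifit3. 1 gene that the rule names is not reported here. List symbols not found were matched through unambiguous RefSeq synonyms. Of 9 other settings tried, 8 were listed at the start and 1, equal medians, was chosen after seeing the data; the closing section gives their effect. Python 3.11.15, pandas 2.3.3 and scipy 1.17.1 were used.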

Additional observations from a re-analysis of the deposited data

Results flagged for a closer look

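For all 7 members the genotype difference had opposite signs at 4 and 2 months. The median of all genes also changed sign, from -0.09 at 2 months to 0.03 at 4 months. The share of all genes with opposite signs was not counted. The difference at 4 months less that at 2 months, on the log2(FPKM + 1) scale, was 2.64 for Ifit3, 2.03 for Bst2, 1.54 for Isg15, 1.07 for Irf7, 0.92 for Stat2 and 0.49 for Irf1, and -0.28 for Ifit1. With 1 library per group these differences between the ages were not tested. The values of Ifit3, Bst2, Isg15, Irf7 and Stat2 rest on the low level in the N101D library of 2 months, the shallowest of the 4. For Ifit1 and for Irf1 at 2 months, and for Ifit3, Isg15 and Ifit1 at 4 months, the counting interval of the genotype difference includes 0, so its sign cannot be told at this depth.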

How the results depend on the processing

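No paired analysis was possible because each group has 1 library and the labels give no replicate numbers; for the same reason no library could be left out of a group. The members' median difference at 2 months (-0.74) was -1.61 with a pseudocount of 0.1 FPKM, -0.22 with one of 5 FPKM, -2.55 at a filter of 5 FPKM (Ifit3 alone), 0.087 with loci of status OK only (Ifit1 alone) and -1.41 when libraries were scaled to equal totals, crystallins left out. At 4 months (0.34) it was 0.53 and 0.12 with these pseudocounts, 0.086 at that filter and -0.19 with status OK only. The age difference in N101D (0.85) was 1.80, 0.29, 2.21 and -0.32 with the pseudocounts of 0.1 and 5 FPKM, the filter and status OK only, in that order, 1.80 with equal totals and 0.58 with quantile normalization. Equal totals moved the interferon lists to -1.51 at 2 months and -0.044 at 4 months, but there the median of all genes was -1.52 at 2 months. Few loci held much of the N101D sum of 2 months, Tspan5 46.0%, Pcsk2 14.9% and 4933404O12Rik 8.50%. At 2 months Stat2 (-1.41), Irf7 (-1.37), Irf1 (-1.25) and Ifit1 (-0.92) then lay above the median of all genes, and Ifit3 (-3.41), Bst2 (-2.47) and Isg15 (-1.76) below it. Over age Ifit1 changed sign in N101D (0.75) and in WT (0.24), and so did Stat2 in WT (0.14).

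Counts of 2-fold genes with pseudocounts of 0.1 and 5 FPKM, the 5 FPKM filter, equal totals and status OK only were 939, 148, 267, 10350 and 234 at 2 months (491 as reported) and 240, 42, 69, 196 and 59 at 4 months (104). In N101D over age they were 1512, 209, 438, 11069 and 367 (755), and in WT 389, 70, 558 and 94 in the same order (157), the filter there moving the count by less than 1.5 times. A pseudocount of 0.1 FPKM brought Irf7 (-1.61) and Stat2 (-1.03) past 2-fold at 2 months, and one of 5 FPKM took Isg15 (-0.37) and Bst2 (-0.64) below it. With equal medians, chosen after seeing the data, Isg15 over age in N101D was 0.95, and with quantile normalization 0.79. Of 51 single values per comparison, 49 kept their sign at 2 months, 50 at 4 months, 49 in WT over age and 50 in N101D over age; Ifit3 at 4 months was -0.11 with equal totals. For Isg15, about 2 reads in the N101D library of 2 months set the limit.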

Other observations

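Genes of antigen presentation, many of which respond to interferon gamma, were also listed. Of 7 at 1 FPKM or more, 4 were at least 2-fold lower in N101D at 2 months and all 7 had a negative sign, with a median of -1.29, while 3.69% of all genes were 2-fold lower. At 4 months none was 2-fold different, against 0.907% of all genes, and all 7 had a positive sign, with a median of 0.20. B2m, the light chain of class I molecules, had 32.5 FPKM in N101D and 25.5 FPKM in WT at 4 months, and 6.88 FPKM in N101D and 34.0 FPKM in WT at 2 months. The listed span of B2m is shared with other loci. Cd74, the class II invariant chain made mainly by antigen-presenting cells, had 6.67 FPKM in N101D and 5.56 FPKM in WT at 4 months, and 0.284 FPKM in N101D and 7.003 FPKM in WT at 2 months. The share of antigen-presenting cells in these values was not tested. Within the Ifit cluster, Gm14446 was the gene with the largest genotype difference at 4 months, 0.82 higher in N101D, and was lower in WT at 4 months than at 2 months by -1.29. Its span is the one shared with Ifit1.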
